A study of Mus musculus with 6 samples.

Results

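The microRNAs described here (miRNAs, small RNAs that silence messenger RNAs) come from the hairpins miR-483, inside the Igf2 gene, and miR-675, inside the H19 gene, in mouse kidney. They were taken by name: 4 mature arms (mmu-miR-483-5p, mmu-miR-483-3p, mmu-miR-675-5p and mmu-miR-675-3p), of which 3 had a row in the count table of 1542 entries, while mmu-miR-675-5p is not analysed here. The locus was chosen by its counts in these same 6 libraries, so every strain difference of theirs is given as a description with no test. The kidneys came from females aged 17 weeks, with 3 small RNA libraries from wild-type C57BL/6 mice and 3 from MRL/lpr mice (genotype MRL/MpJ-Fas<lpr>/J). In MRL/lpr mice the Fas death receptor gene is disrupted by the lpr mutation, and a lupus-like autoimmune disease with nephritis arises spontaneously. Strain background, mutation and disease differ together and cannot be told apart, and the labels do not say whether each library is a separate animal, so spreads between libraries may be technical. Library totals ran from 5259528 to 6773829 counts.

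Igf2 and H19 are neighbouring imprinted genes: Igf2, a fetal growth factor, is expressed mainly from the paternal chromosome and the long noncoding RNA H19 from the maternal chromosome, under a shared imprinting control region and shared enhancers. Both are strongly expressed in fetal tissues, kidney included, and are largely shut down after birth in most mouse tissues. miR-675 is cut from the H19 transcript and is known for limiting placental growth, with the IGF1 receptor messenger RNA among its reported targets. miR-483 lies in an intron of Igf2 and is known for its high level in Wilms tumour, a childhood kidney tumour, where the locus is often overactive.

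The mature arms are shown because they share one locus but no seed, the stretch of bases 2 to 8 that leads target recognition, which stands in capitals (RefSeq, GRCm38.p6, 5′ to 3′).
miR-483-5p: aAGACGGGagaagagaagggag
miR-483-3p: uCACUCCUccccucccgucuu
miR-675-5p: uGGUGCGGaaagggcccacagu
miR-675-3p: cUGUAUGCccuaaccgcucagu
The arms of miR-483 are skewed in composition: 95.5% of the bases of miR-483-5p are purines (A or G), against 9.52% in miR-483-3p. None of the 4 seeds was shared with another of the 1679 mature mouse names in the RefSeq table, where 72.1% of names have a seed of their own. The nearest other mature sequence differed from each arm at 6 or 7 bases over the 17 to 20 bases compared, with shifts of up to 2 bases allowed. No other mature miRNA in that table was thus a near copy of these arms; the authors' predicted entries were not compared.

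The hairpins are shown because both arms of miR-483 were counted, and the arms stand in capitals.
Mir483: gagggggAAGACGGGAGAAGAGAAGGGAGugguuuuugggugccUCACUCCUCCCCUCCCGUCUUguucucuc
Mir675: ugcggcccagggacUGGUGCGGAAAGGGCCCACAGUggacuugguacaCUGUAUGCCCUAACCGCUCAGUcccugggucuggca
The miR-483 hairpin lies at chr7:142654924-142654996 and the miR-675 hairpin at chr7:142577064-142577147, both on the minus strand of GRCm38. In the GENCODE M21 annotation the miR-483 hairpin fell in an intron of each of the 7 Igf2 transcripts that span it. The miR-675 hairpin fell in an exon of 3 and in an intron of 1 of the 4 H19 transcripts that span it. The hairpins are 77.8 kb apart. In the structure of lowest predicted energy (RNAfold), 16 bases of the 5p arm paired with the 3p arm in each hairpin. In miR-483 the first 10 bases of the 5p arm form a perfect complement with the 3p arm, against 5 bases for the longest such stretch in miR-675.

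**Figure D1:**
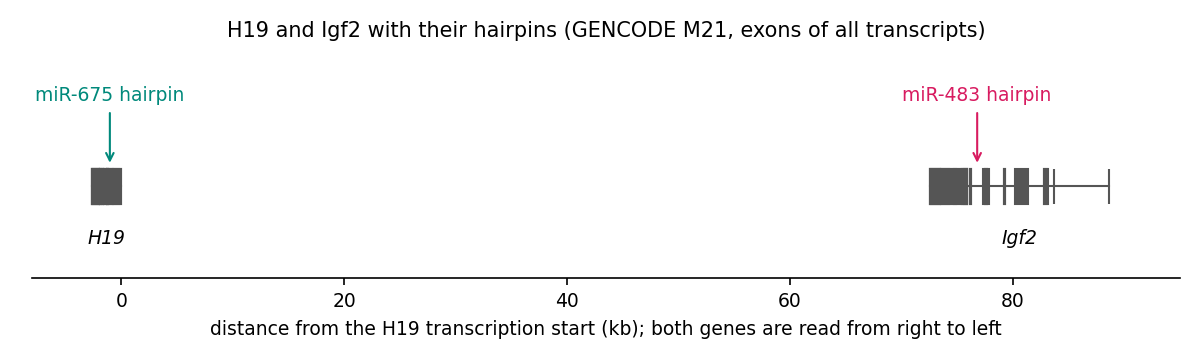
Map of H19 and Igf2 with their miRNA hairpins; the horizontal axis is the distance from the H19 transcription start in kb, boxes are the exons of all annotated transcripts and lines the introns. The miR-675 hairpin sits in H19 and the miR-483 hairpin 77.8 kb away in Igf2.

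Both arms of miR-483 were lower in MRL/lpr kidneys than in C57BL/6 kidneys, and both were rare. mmu-miR-483-3p had 11, 5 and 19 counts in C57BL/6 replicates 1, 2 and 3, and 2, 1 and 0 counts in MRL/lpr replicates 1, 2 and 3. Its lowest C57BL/6 library lay above its highest MRL/lpr library. As CPM (counts scaled to a common library size, with the TMM correction for library composition), the C57BL/6 mean was 2.00 ± 1.10 and the MRL/lpr mean 0.159 ± 0.144 (SD, n = 3 each). Summed over libraries, 35 counts stood against 3, a ratio of 12.2 (C57BL/6 over MRL/lpr) with an exact 95% interval of 3.83 to 61.8. These intervals cover counting error only, since the spread between libraries does not enter and PCR copies may be counted more than once.

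mmu-miR-483-5p had 11, 3 and 9 counts in C57BL/6 replicates 1, 2 and 3, and 0 counts in each MRL/lpr library. All C57BL/6 libraries held this arm, and no MRL/lpr library did. Its level was 1.38 ± 0.884 CPM in C57BL/6 (SD, n = 3). A count of 0 allows up to 3 counts, which is 0.423, 0.582 and 0.497 CPM in MRL/lpr replicates 1, 2 and 3. Against a floor of 3 counts over the whole MRL/lpr group, the 23 C57BL/6 counts lay 7.99-fold higher after scaling. This fold takes the 23 counts as exact, so it is no lower limit of the strain difference. The exact interval of 23 counts runs from 14.6 to 34.5 counts. For the summed MRL/lpr count of 0 the exact upper limit is 3.69 counts. The lowest C57BL/6 library, at 0.482 CPM, lay inside the range of the single-library floors and below the exact upper limit of each MRL/lpr library. At this depth that library alone could thus not be set apart from the MRL/lpr libraries.

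The 3p arm from H19 was at the limit of detection in both strains. mmu-miR-675-3p had 1, 0 and 0 counts in C57BL/6 replicates 1, 2 and 3, and 1, 0 and 0 in MRL/lpr replicates 1, 2 and 3. The strains thus had the same summed count, 1 each, over 18417595 and 17270999 total counts. The exact interval of a summed count of 1 runs from 0.0253 to 5.57 counts, so a strain difference of several fold in this arm was not detectable at this depth. No fold is given.

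**Figure D2:**
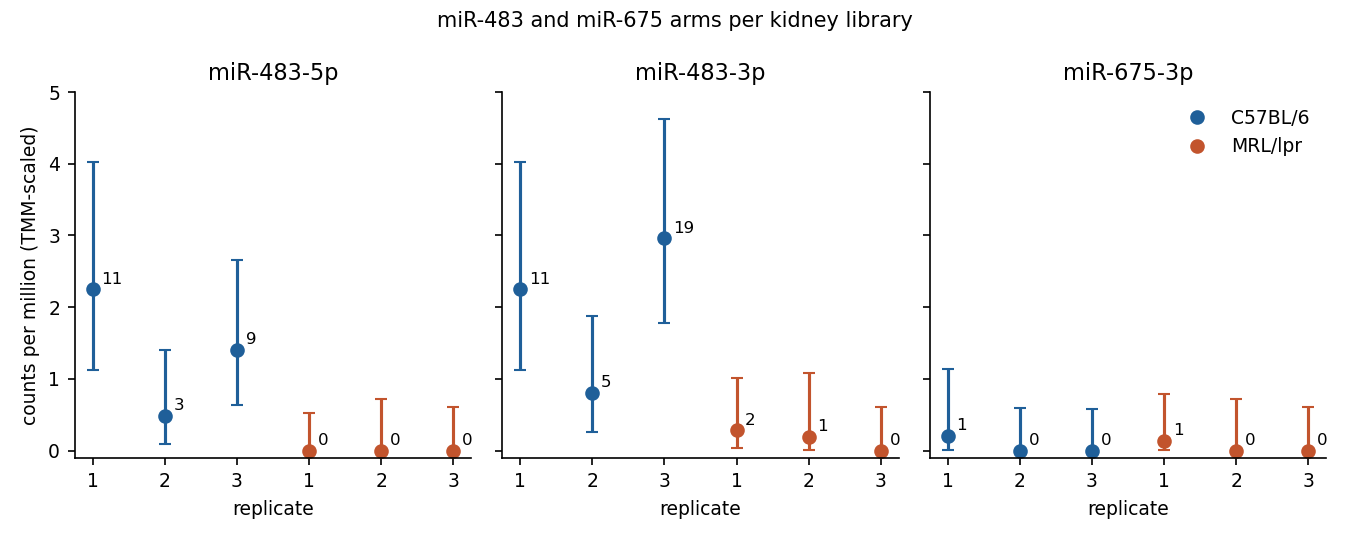
Level of miR-483-5p, miR-483-3p and miR-675-3p in each kidney library; the vertical axis is TMM-scaled CPM, points are libraries with the raw count beside them, and bars are exact 95% Poisson intervals for counting error. The C57BL/6 points of miR-483-3p run from 0.803 to 2.96 CPM and the MRL/lpr points from 0 to 0.282 CPM.

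With the 2 arms of miR-483 added, the hairpin had 22, 8 and 28 counts in C57BL/6 replicates 1, 2 and 3, and 2, 1 and 0 in MRL/lpr replicates 1, 2 and 3. The ratio of summed counts was 20.2 (C57BL/6 over MRL/lpr; exact 95% interval 6.56 to 101). Without C57BL/6 replicate 2, the lowest C57BL/6 library for both arms, it was 26.9 (8.70 to 135), and that of miR-483-3p was 16.2 (5.03 to 82.8). The fold of miR-483-5p over the floor was then 10.8. With every library left out in turn, the ratio of miR-483-3p ran from 8.14 without MRL/lpr replicate 3 to 22.3 without MRL/lpr replicate 1, which held 2 of its 3 MRL/lpr counts. The fold of miR-483-5p over the floor ran from 4.89 without MRL/lpr replicate 1 to 10.8 without C57BL/6 replicate 2. The ratio for both arms together was 37.0 (6.39 to 1488) without MRL/lpr replicate 1, and 13.5 without MRL/lpr replicate 3.

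In these kidneys neither hairpin was abundant. Of the 1189 entries above 0 in C57BL/6, 432 had a higher mean CPM than miR-483-3p, 462 than miR-483-5p and 958 than miR-675-3p. In MRL/lpr, 807 of the 1186 entries above 0 were higher than miR-483-3p and 1110 than miR-675-3p. Such ranks compare different miRNAs, whose ligation into the library can differ.

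**Figure D3:**
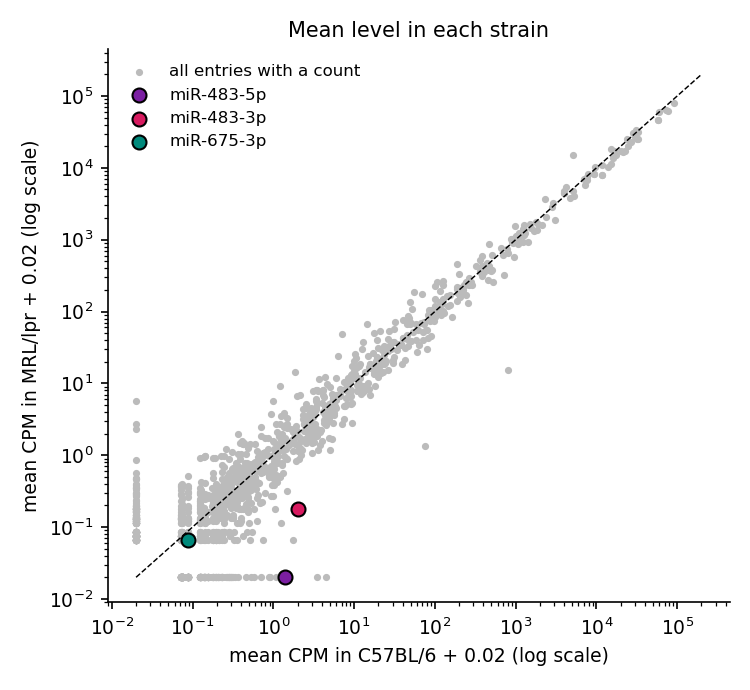
Mean level of every counted entry in C57BL/6 (horizontal) against MRL/lpr (vertical), in CPM plus 0.02 on log axes, with the equality line dashed. Both miR-483 arms lie below the line, at 2.00 and 1.38 CPM in C57BL/6, and miR-675-3p lies close to the line at the lowest levels.

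No member passed the filter on low counts with all 6 libraries, so none was among the 451 miRNAs tested, of which 28 (6.21%) were called (edgeR quasi-likelihood test, adjusted p under 0.05), 4.21% of the 451 higher and 2% lower in MRL/lpr. In a fit of all 1395 entries with any count, where 4.59% were called, the log2 fold change (MRL/lpr over C57BL/6) was -3.49 ± 0.85 (SE) for miR-483-3p. The fitted value for miR-483-5p, -6.05 ± 1.41, depends on the small count the fit assumes for a group at 0 and is no bound. The strains did not overlap in CPM, with MRL/lpr lower, for 2 of the 3 arms analysed. The same held for 7.74% of the 1395 entries, and 6.81% lay apart with MRL/lpr higher. Among the 112 entries with 20 to 50 counts in all, the range in which both miR-483 arms lie, the shares were 11.6% lower and 12.5% higher. An entry counted in every C57BL/6 library and in no MRL/lpr library, as miR-483-5p was, occurred 16 times among the 1395 (1.15%), and the mirror pattern 13 times (0.932%). In the range of 20 to 50 counts it occurred 3 times (2.68%). Of 320 hairpins with both arms counted, 10 (3.12%), miR-483 included, had both arms lower in MRL/lpr without overlap, and 9 (2.81%) had both higher.

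Both arms of miR-483 were counted in every C57BL/6 library. In C57BL/6 replicates 1, 2 and 3, miR-483-5p made up 50.0% (Wilson 95% interval 30.7 to 69.3), 37.5% (13.7 to 69.4) and 32.1% (17.9 to 50.7) of the counts of the hairpin. The mean share was 39.9% ± 9.16 (SD, n = 3). In MRL/lpr the 3 counts of the hairpin were all of the 3p arm, and the interval of the 5p share ran from 0 to 56.1%, so a shift in arm use could not be judged at this depth. Most hairpins kept 1 arm: of 225 hairpins with at least 20 counts in C57BL/6, the less frequent arm had a median share of 2.18%. In 9 of them, miR-483 included, it reached the 39.7% of the summed miR-483 counts.

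**Figure D4:**
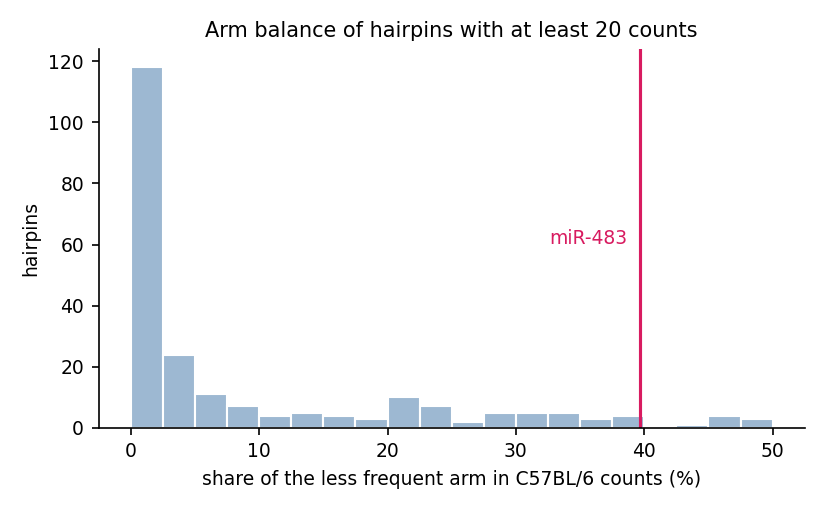
Share of the less frequent arm, in percent of both arms' C57BL/6 counts, for 225 hairpins with at least 20 counts; bars count hairpins and the vertical line marks miR-483. Most hairpins lie near 0, with a median of 2.18%, and miR-483 lies at 39.7%.

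Other miRNAs near the locus were few and none was called. Within 2 Mb of the hairpins RefSeq places 9 other mature miRNAs, of which 6 were analysed and 3 passed the filter. None of these 3 was called by edgeR (0 at an unadjusted p under 0.05, and 0 by DESeq2 or limma-voom). miR-210-3p, a hypoxia-induced miRNA, had 21, 63 and 37 counts in C57BL/6 and 46, 32 and 42 in MRL/lpr, with overlapping groups (log2 fold change -0.043 ± 0.39). miR-3105-5p had a log2 fold change of -0.39 ± 0.22 and miR-3105-3p of 0.78 ± 0.51. Of the others, miR-210-5p had 2 to 7 counts in every library, and miR-7063-5p and miR-7063-3p had 1 and 2 counts in all. No test of these against miR-483 was made.

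Of 8 miRNAs listed from other imprinted loci (Gnas, Mest and the miR-184 locus), 3 passed the filter and none was called by edgeR (0 at an unadjusted p under 0.05, and 0 by DESeq2 or limma-voom). The most abundant, miR-335-5p from the Mest gene, had 430, 753 and 499 counts in C57BL/6 and 436, 546 and 491 in MRL/lpr, which overlap (log2 fold change -0.20 ± 0.27, and 0.019 without C57BL/6 replicate 2). Its partner miR-335-3p had a log2 fold change of 0.0024 ± 0.50, with -0.0052 under RLE scaling, -0.75 without MRL/lpr replicate 2 and 0.33 without MRL/lpr replicate 1. Chosen after their values were seen, miR-296-5p had 2, 3 and 1 counts in C57BL/6 and 17, 3 and 17 in MRL/lpr, and miR-184-3p had 0, 15 and 2 against 15, 34 and 15. Both were called higher in MRL/lpr with no filter, as was miR-184-3p without C57BL/6 replicate 2 and miR-296-5p without MRL/lpr replicate 2.

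A further list held miRNAs reported to target messenger RNAs of the insulin-like growth factor pathway, to which Igf2 belongs. Of 24 listed, 23 were tested with edgeR, 1 was higher and none was lower (4 at an unadjusted p under 0.05), beside 6.21% of all tested miRNAs called, so the count is near the background. DESeq2 called miR-29b-3p higher as well. Their median log2 fold change was -0.24, with 9 of 23 above 0, beside -0.027 for all 451 miRNAs tested. The 1 call was miR-125b-5p, for which Igf2 is a reported target. It had 1735, 3733 and 2865 counts in C57BL/6 and 6265, 4203 and 5287 in MRL/lpr, and every MRL/lpr library lay above every C57BL/6 library. Mean CPM was 467 ± 124 for C57BL/6 against 858 ± 37.3 for MRL/lpr (SD, n = 3 each). The log2 fold change was 0.88 ± 0.22 (edgeR adjusted p = 0.0451). It missed the threshold in 7 of 14 alternatives, with adjusted p from 0.00653 to 0.179. Leaving out C57BL/6 replicate 1 or 3 gave an edgeR adjusted p of 0.156 or 0.142, and leaving out MRL/lpr replicate 1, 2 or 3 gave 0.111, 0.0671 or 0.179. Without MRL/lpr replicate 2, let-7c-5p and let-7e-5p were called lower, so 2 members were then called in place of 1.

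Marker miRNAs of kidney epithelium were present in all libraries, with 13 of 13 listed members counted and a summed level of 127063 to 172534 CPM in C57BL/6 and 155613 to 171521 CPM in MRL/lpr. Of these 13, 2 were called higher in MRL/lpr, beside 4.21% of all 451 tested miRNAs. They were miR-204-5p (log2 fold change 1.52 ± 0.18) and miR-802-5p (1.75 ± 0.29), the latter with an edgeR adjusted p of 0.0643 without MRL/lpr replicate 3. None of the 13 was called lower, and 5 had an unadjusted edgeR p under 0.05. The median log2 fold change of the 13 was 0.11, with 9 of 13 above 0, beside -0.027 for all 451 miRNAs tested. C57BL/6 replicate 2, which had the fewest miR-483 counts of its strain, also had the lowest epithelial sum and the highest sum of the 8 leukocyte and myeloid markers. That sum was 29062 CPM, against 6245 and 6067 CPM in replicates 1 and 3 and 9416 to 11120 CPM in MRL/lpr. Its largest member was miR-146a-5p, with 159196 counts in C57BL/6 replicate 2. There miR-150-5p, miR-223-3p, miR-342-3p and miR-511-3p also had their highest counts, while miR-142a-3p, miR-142a-5p and miR-155-5p were highest in MRL/lpr. Of these 8 markers miR-155-5p was higher in MRL/lpr (log2 fold change 1.30 ± 0.30), beside 4.21% of all 451 tested miRNAs called higher. Without C57BL/6 replicate 2, 5 of the 8 were higher, and calls over all miRNAs rose too, with 42 of 470 tested called higher. DESeq2 and edgeR with no filter each called 3 of the 8 higher (miR-142a-3p, miR-142a-5p and miR-155-5p), limma-voom called 2, and the replicate block called none (edgeR adjusted p of miR-155-5p 0.0842). None was called without C57BL/6 replicate 1 or 3 or MRL/lpr replicate 1 or 3, where the edgeR adjusted p of miR-155-5p was 0.109, 0.103, 0.058 and 0.156. The part of these cells in the miR-483 counts was not tested.

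Of the other tissues whose RNA a kidney piece could hold, the neuroendocrine markers had sums that did not overlap between strains. They were 1546 to 1705 CPM in C57BL/6 and 1266 to 1477 CPM in MRL/lpr, with 6 of 6 members counted. Of the 6, miR-375-3p was lower in MRL/lpr (log2 fold change -1.19 ± 0.20, edgeR adjusted p = 0.00793) and none was higher. Over all 451 tested miRNAs, 2% were called lower. Without MRL/lpr replicate 3 the edgeR adjusted p of miR-375-3p was 0.0654. The sum turned the other way without miR-375-3p, at 902 to 950.5 CPM in C57BL/6 and 984 to 1163 CPM in MRL/lpr. The median log2 fold change of the 6 was 0.081, with 4 of 6 above 0. Their part in the miR-483 difference was not tested. The sums of the other lists overlapped between strains: liver at 4.91 to 12.3 and 2.65 to 8.73 CPM in C57BL/6 and MRL/lpr, muscle at 190.02 to 254 and 142 to 200.1 CPM, mesenchymal at 30626 to 44041 and 27365 to 34332 CPM, and erythroid at 596 to 3502 and 3476 to 4311 CPM. No member of these 4 lists was called by edgeR (0 at an unadjusted p under 0.05, and 0 by DESeq2 or limma-voom). Their most abundant members were miR-143-3p and miR-199a-3p (mesenchymal), miR-1a-3p and miR-499-5p (muscle), miR-122-5p and miR-122-3p (liver), and miR-451a and miR-144-3p (erythroid). In C57BL/6, miR-451a had 13827, 3693 and 22386 counts, and miR-199a-3p had 13192, 36207 and 242, a wide spread within 1 strain. The other arm, miR-199a-5p, had 2921, 5847 and 3691 counts, and the cause of the low miR-199a-3p count in replicate 3 was not tested. In bulk tissue, fewer cells of a type and less RNA per cell cannot be told apart.

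**Figure D5:**
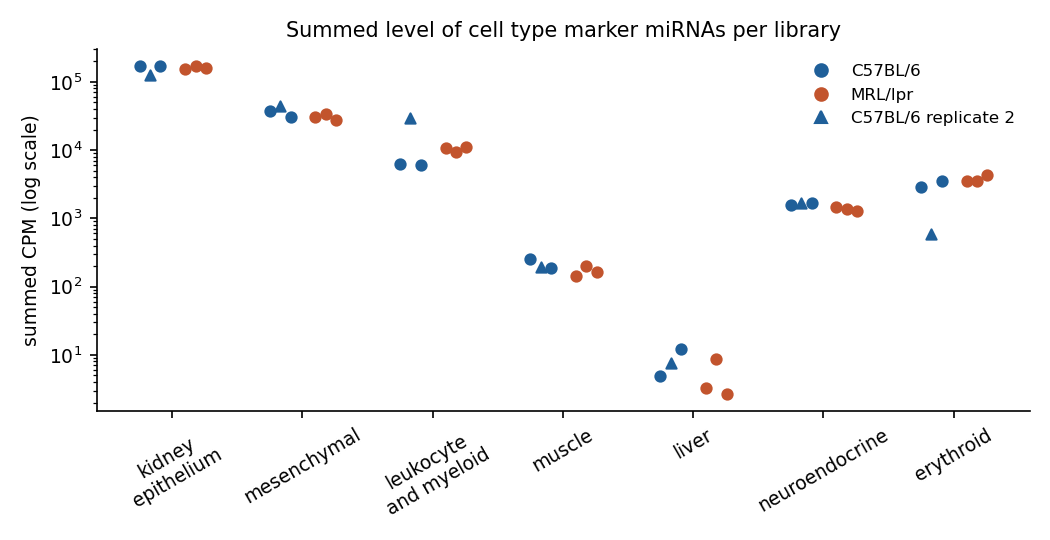
Summed CPM (log axis) of the marker miRNAs of each cell type, with 1 point per library and C57BL/6 replicate 2 as a triangle. That library stands highest in the leukocyte and myeloid sum, at 29062 CPM, and lowest in the erythroid sum, at 596 CPM. The largest member of its leukocyte and myeloid sum was miR-146a-5p.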

How the data were processed

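Per the labels' protocols, total RNA from kidney was adapter-ligated, amplified, size-selected on gels and sequenced on a DNA nanoball instrument. Bowtie2, DESeq2 and the build GRCm38.p6 are named in the submitters' processing notes. The sources used here do not give tool versions, the miRNA annotation or the handling of strand and multiply matching reads. Values deposited by the authors are raw counts per mature miRNA. Members and lists were chosen with earlier results of these data known.

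Counts were fitted in R 4.3.3 with edgeR 4.0.16 (filterByExpr with minimum count 10 and total 15, TMM, robust quasi-likelihood, Benjamini-Hochberg, threshold 0.05). As no member passed the filter, member fold changes came from the same fit on all 1395 entries with a count. CPM used full library totals and the TMM factors of the filtered table. Ratios of summed counts used the same scaling, with exact conditional intervals; floors were 3 counts. The lists were kidney epithelium, mesenchymal, leukocyte and myeloid, muscle, liver, neuroendocrine, erythroid, other imprinted loci and IGF-targeting miRNAs. Named were the members, neighbours within 2 Mb, and of each list up to 4 called members or else the 2 most abundant. A search for miRNAs of like pattern needed a mean of 10 counts, which 0 members reached. Alternatives used DESeq2 1.42.0, limma 3.58.1, other scalings and filters, the replicate block and each library left out; filtered fits with a library left out, counts called in the lists, summed counts without C57BL/6 replicate 2 and the neuroendocrine sum without miR-375-3p were added after seeing the data. Structures used RNAfold 2.7.2 and figures matplotlib 3.10.9. No libraries of a group were duplicates (lowest and highest chi-square per degree of freedom 123 and 726).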

Additional observations from a re-analysis of the deposited data

How the results depend on the processing

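The miR-483 groups do not overlap, so the sign of their log2 fold changes was fixed by the choice of members and is no sign of stability. With each library left out the value ran from -6.44 to -5.62 for miR-483-5p and from -4.19 to -2.95 for miR-483-3p; in the 4 filtered fits that miR-483-3p passed, only through its C57BL/6 counts, it was -4.16 to -2.91. limma-voom gave -3.90 for miR-483-5p; the cause was not tested. The 5p share of miR-483 in C57BL/6 was 34.8% to 43.8% with each library left out, and 39.7% and 41.1% under the other alternatives. No value is given for the members with at least 1 CPM required in 3 libraries, since none passed.

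The number of calls over all miRNAs was 28 (19 higher, 9 lower) and 64 with no filter, which tests more entries (34 higher, 30 lower), 51 with DESeq2 and 5 to 54 with each library left out, where fewer libraries enter (15, 54 and 11 without C57BL/6 replicates 1, 2 and 3, and 19, 30 and 5 without MRL/lpr replicates 1, 2 and 3). With the replicate block it was 13, and the deviations of same-numbered libraries correlated at -0.34, 0.020 and -0.33, so the numbers were not taken to pair libraries; the block left the miR-483 values at -6.13 and -3.47. Scaling by library size alone shifted the median log2 fold change by 0.15, with 24 higher and 6 lower. At 1 count worth 0.141 to 0.205 CPM, depth limits every statement on miR-675-3p and on arm use in MRL/lpr.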
